A study of Mus musculus with 6 samples.

Results

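The genes described here are antisense non-coding RNAs, transcripts read from the strand opposite to a protein-coding gene, in liver sinusoidal endothelial cells of the mouse. They are the rows of the deposited table that its type column calls antisense and whose mean over the 6 libraries was at least 100 counts, which gave 328 of 2173 antisense rows and of 51165 rows in all. The members were chosen by their mean count over both genotypes, so their abundance is a description. A row high in only one genotype can pass this minimum: 19 members had a WT mean under 100 counts and 9 a NICeCA mean under 100. Each row was set beside a protein_coding partner, the row with the largest overlap on the opposite strand or, for the 10 members without such an overlap, the nearest one on that strand. RNA was sequenced from cells of NICeCA mice, in which tamoxifen activated Notch signalling per the labels, and of wild type (WT) mice that also received tamoxifen. All mice were C57BL/6 and 7 to 8 weeks old, and each genotype had 3 libraries, numbered 1, 2 and 3 for NICeCA and 1, 3 and 4 for WT. The labels give neither the alleles behind the name NICeCA, nor the promoter or cell type that drives recombination, nor the number of animals behind a library. P-values therefore cover the differences among these 6 libraries, whether those are biological or technical.

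Antisense transcripts arise from promoters shared with a coding gene and read in the other direction, from promoters inside introns, or from a downstream site that reads back into the gene. A few are known to act in cis, such as Kcnq1ot1, which silences an imprinted gene cluster, but for most no role is known. Notch receptors are cut on binding a ligand, and the freed intracellular domain joins the DNA-binding protein RBPJ to switch on targets such as the Hes and Hey repressors and Nrarp, a feedback inhibitor of the pathway. Sinusoidal endothelium is a fenestrated, scavenging endothelium marked by receptors such as Stab2, Clec4g and Fcgr2b and by the transcription factor Maf, and Notch activity is known to affect its identity.

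The pairs differ in how far both strands share exons, which sets how the values can be read. For Gm11175, the antisense row with the most counts, every base of the exons lay over exons of Jund, which encodes an AP-1 transcription factor, and its longest transcript matched Jund antiparallel without a mismatch over 543 of 543 bases. For Gm38287, opposite Nrarp, the longest such run was 1491 of 2051 bases. A stretch of each pair from within the coding sequence of the partner is shown 5′ to 3′ on its own strand, with the same 15 base pairs in capitals on both strands (GENCODE M21 transcripts, GRCm38; chr8:70699787-70699831 for the Jund pair and chr2:25181205-25181249 for the Nrarp pair, minus strand for the antisense RNA and plus strand for the partner).
Gm11175: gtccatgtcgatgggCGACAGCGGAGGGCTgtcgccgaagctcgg
Jund: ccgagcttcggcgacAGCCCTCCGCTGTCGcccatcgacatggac
Gm38287: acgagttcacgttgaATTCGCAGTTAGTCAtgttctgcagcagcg
Nrarp: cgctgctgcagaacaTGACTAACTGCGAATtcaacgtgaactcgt
The labels do not say whether the libraries kept the strand or whether counting used it. Without strand, reads from such stretches belong to either row, and a member and its partner cannot be told apart there.

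Head-to-head pairs share a start region and few exon bases. Gm10138 begins 923 bases from the start of the table's row of Ivns1abp, a kelch-domain protein that binds actin, and the window around the Ivns1abp start lies within the span of Gm10138. Likewise the window around the start of Serinc3, a membrane protein of the serine incorporator family, lies within the span of 0610039K10Rik. These windows of 300 bases, 250 before and 50 after the annotated start with the 50 in capitals, come from RefSeq on GRCm38.p6 (chr1:151344236-151344535, plus strand; chr2:163645094-163645393, minus strand; chr2:163644600-163644899, plus strand).
Ivns1abp: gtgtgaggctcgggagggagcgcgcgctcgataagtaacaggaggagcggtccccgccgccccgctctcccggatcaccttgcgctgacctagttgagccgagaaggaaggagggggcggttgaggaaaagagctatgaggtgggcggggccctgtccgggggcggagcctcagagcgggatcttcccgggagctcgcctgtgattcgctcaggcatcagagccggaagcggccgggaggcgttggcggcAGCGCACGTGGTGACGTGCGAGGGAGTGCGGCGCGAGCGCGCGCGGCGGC
Serinc3: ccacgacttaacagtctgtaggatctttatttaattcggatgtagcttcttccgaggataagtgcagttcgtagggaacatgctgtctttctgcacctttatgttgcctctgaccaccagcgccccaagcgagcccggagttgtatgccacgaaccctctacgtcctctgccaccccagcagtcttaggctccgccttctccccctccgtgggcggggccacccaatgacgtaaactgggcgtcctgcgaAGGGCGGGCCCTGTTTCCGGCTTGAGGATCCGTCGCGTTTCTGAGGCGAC
0610039K10Rik: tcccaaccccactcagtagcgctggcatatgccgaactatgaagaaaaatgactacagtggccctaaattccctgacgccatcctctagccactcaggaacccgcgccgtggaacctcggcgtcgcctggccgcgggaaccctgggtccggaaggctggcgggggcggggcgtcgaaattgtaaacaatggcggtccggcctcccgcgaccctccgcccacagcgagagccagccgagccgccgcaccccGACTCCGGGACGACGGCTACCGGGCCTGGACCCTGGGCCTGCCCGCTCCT
They hold 37, 21 and 31 CG dinucleotides, against a median of 7 over all 32851 RefSeq windows of that length. The letters TGGGAA, the core of the RBPJ motif, were searched on both strands and are in none of these 3 windows. They occurred in 11 of 45 windows of members (24.4%) and in 56 of 208 windows of partners (26.9%) whose start lay within 500 bases of the row's start, against 25.6% of all windows. The median number of CG dinucleotides was 14 in these windows of members and 21 in those of partners.

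**Figure D1:**
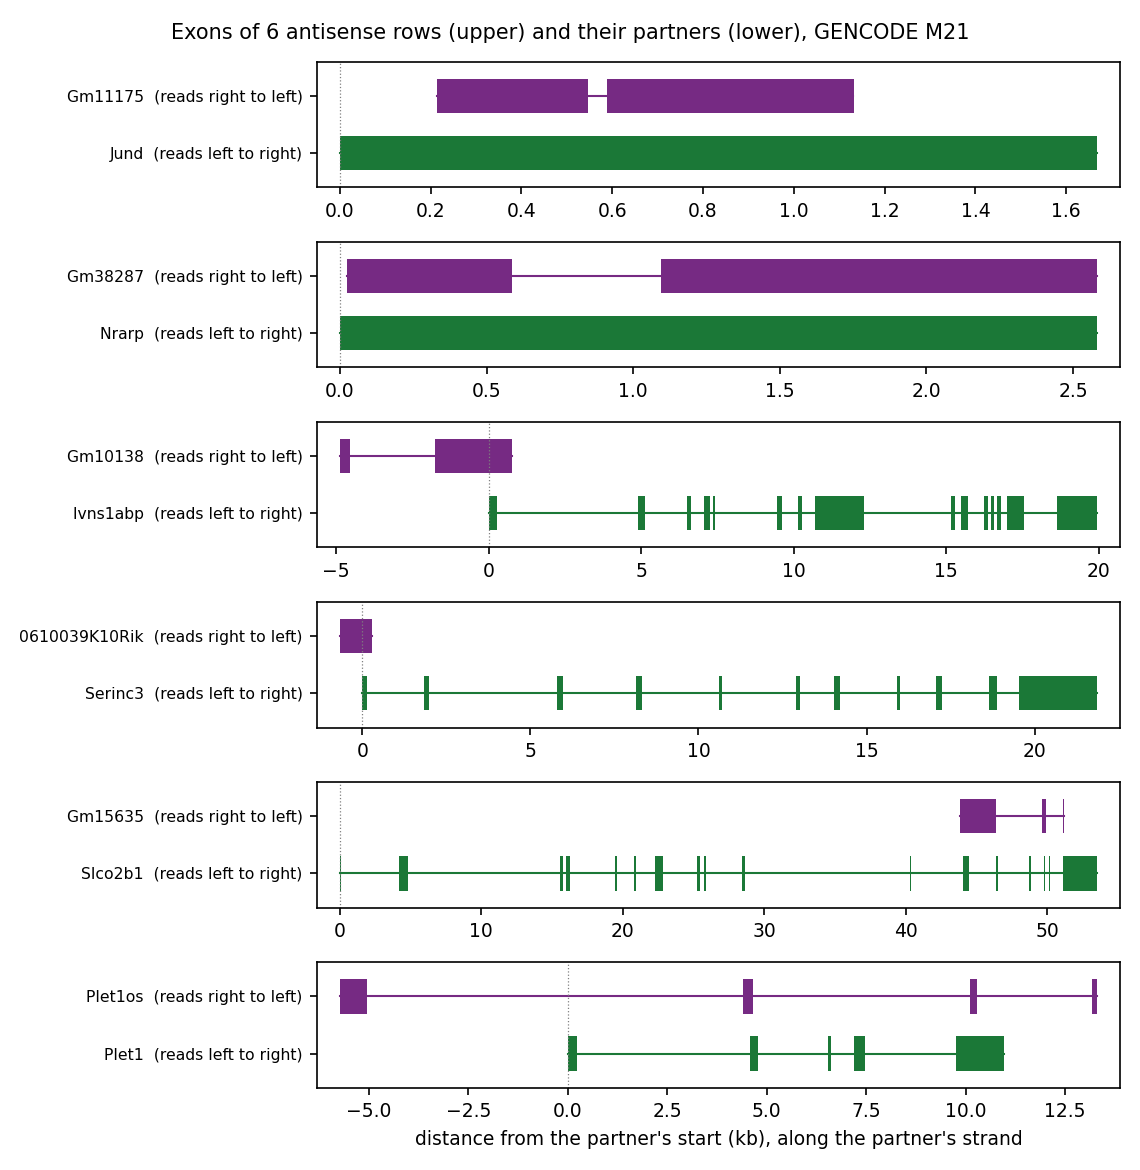
Exon maps of 6 pairs, with the antisense row above and its partner below; the x axis is the distance in kb from the partner's start along the partner's strand, boxes are exons of GENCODE M21 and lines introns. Gm11175 and Gm38287 lie over a partner that is a single exon, Gm10138 and 0610039K10Rik cross the partner's start, Gm15635 lies near the far end of Slco2b1, and Plet1os spans Plet1 on both sides.

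Of the 328 members, 149 lay inside the span of the partner, 82 overlapped it tail to tail, and 44 were head to head with starts at most 1000 bases apart. A further 37 overlapped at their 5′ ends with starts further apart, 10 contained the partner, and 6 had no overlap and no close start. In all, 318 members overlapped an opposite protein_coding row, and 20 members had a partner that another member has too. Another row on the same strand covered at least 50% of the span of 91 members, so some loci are counted more than once. Kcnq1ot1 is such a case, since a second row of that name had a mean of 587 counts beside 590 for the member, and the members are not 328 separate measurements.

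Library totals ran from 28624549 to 29672685 counts in NICeCA and from 26254649 to 30034191 in WT. Members took 0.679% to 0.716% of the counts in NICeCA and 0.681% to 0.740% in WT. Endothelial markers summed to 9551 to 13890 CPM in NICeCA and 13950 to 14020 CPM in WT, and 0 of the 8 had a positive fold change. The median log2 fold change of the endothelial markers was -0.20. Neutrophil markers summed to 2826, 3983 and 15630 CPM in NICeCA, against 784, 122 and 2464 CPM in WT. All 8 neutrophil markers had a positive fold change, with a median log2 value of 3.37 and Mpo at 0 in at least 1 library. B cell markers summed to 13.1 to 17.8 CPM in NICeCA and 1.93 to 5.79 CPM in WT. T cell markers summed to 8.36, 44.4 and 60.6 CPM in NICeCA and to 23.6, 2.21 and 2.98 CPM in WT, and Kupffer cell markers to 779, 610 and 111 CPM in NICeCA and to 67.2, 117 and 933 CPM in WT, with a median log2 fold change of 0.19. Hepatocyte markers summed to 551, 340.3 and 699 CPM in NICeCA and to 367, 428 and 655 CPM in WT. Stellate cell markers summed to 522, 439.8 and 491 CPM in NICeCA and to 489, 659.8 and 804 CPM in WT. Ribosomal RNA rows took 0.478% to 1.90% of counts in NICeCA, 5.38% in WT 1, and 1.09% and 1.55% in WT 3 and 4. In bulk samples, fewer cells of a type and less RNA per cell cannot be told apart.

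The member means ran from 100.3 to 25488 counts with a median of 249, and the 8 most abundant held 35.4% of all member counts. Normalised counts below are CPM on TMM-scaled library totals. Gm11175 (ENSMUSG00000080058.2, chr8:70699162-70700080, minus strand) had 702, 875 and 1253 CPM in NICeCA libraries 1, 2 and 3, against 847, 813 and 824 CPM in WT libraries 1, 3 and 4. NICeCA 3 was the highest library and NICeCA 1 the lowest, so the genotypes overlapped, and the log2 fold change of 0.19 ± 0.22 (SE) did not pass (edgeR adjusted p = 0.718). Jund itself had 1026, 1283 and 1832 CPM in NICeCA, against 1283, 1211 and 1187 CPM in WT. Library by library, the Gm11175 count was between 66.0% and 69.4% of the Jund count.

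Gm16553 (chr8:3709804-3739044, plus strand) crosses the start of Clec4g, a sinusoidal lectin receptor, and had 486, 422 and 300.1 CPM in NICeCA, against 561, 589 and 789 CPM in WT. Junos is head to head with Jun, another AP-1 factor, and had 321, 349 and 514 CPM in NICeCA, against 330.2, 443 and 333 CPM in WT. The genotypes did not overlap for Gm16553, with every NICeCA library below every WT library, and overlapped for Junos. Gm12758, opposite 4931406P16Rik, averaged 197 ± 34 CPM in NICeCA and 254 ± 39.6 CPM in WT (SD, n = 3 each). Gm17080, inside the gene of the nucleoside transporter Slc29a1, averaged 107 ± 20.2 CPM in NICeCA and 198 ± 32.2 CPM in WT. The other 3 of the 8 were BC037039 in the protocadherin gamma cluster (Pcdhgb2), Gm9917 beside the Ras-association gene Rassf1, and A030001D20Rik in Rasip1, which encodes an endothelial Ras-interacting protein. Their log2 fold changes were 0.17 ± 0.21, -0.40 ± 0.13 and -0.34 ± 0.14, and none passed (edgeR adjusted p = 0.742, 0.228 and 0.289).

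Rows just inside the minimum were Gm12946 with a mean of 100.3 counts, Gm16599 with 101.2 and Gm38204 with 102.5. Just outside lay ENSMUSG00000100348.1 with 99.2, E230032D23Rik with 98.3 and Gm27184 with 97.3.

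Per length, members with at least 75% of their exon bases over exons of protein-coding genes on the other strand, untranslated parts included, stood at about the level of their partner, and the other members mostly lower. Levels are compared as mean RPKM over the 6 libraries. In the 61 members with a share of at least 75%, the median level was 108.7% of the partner's, and 50 of them were within 2-fold of it. The median was 55.6% in the 134 members with a share of 25% to under 75%, of which 65 were within 2-fold. It was 27.9% in the members with a share under 25%, where 24 of 127 with a level for both rows were within 2-fold. Across the 61 members of the highest class the log2 RPKM of member and partner correlated with Pearson's r = 0.86, beside 0.53 in the middle class and 0.62 in the lowest. Across the 29 members whose exon bases were all over exons of coding genes r was 0.94. These correlations are across genes, which are not independent replicates, and both rows of a pair share library and, in part, sequence.

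Members on either side show the range. Gm17035, whose exon bases all lay over exons of coding genes, 56.8% of those of its longest transcript over coding sequence, is opposite Ndrg1, a stress-responsive gene, and stood at 178 RPKM, against 144 RPKM for Ndrg1. Gm20659, whose longest transcript lay 100% over exons of Dusp3 but 0% over its coding sequence, stood at 131 RPKM, against 128 RPKM for Dusp3, the gene of a dual-specificity phosphatase. By contrast Kcnq1ot1, at 0.13% of its exon bases over exons of coding genes, stood at 0.243 RPKM, against 14.6 RPKM for Kcnq1, a potassium channel gene. 0610039K10Rik, at 14.1%, stood at 6.74 RPKM, against 645 RPKM for Serinc3.

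**Figure D2:**
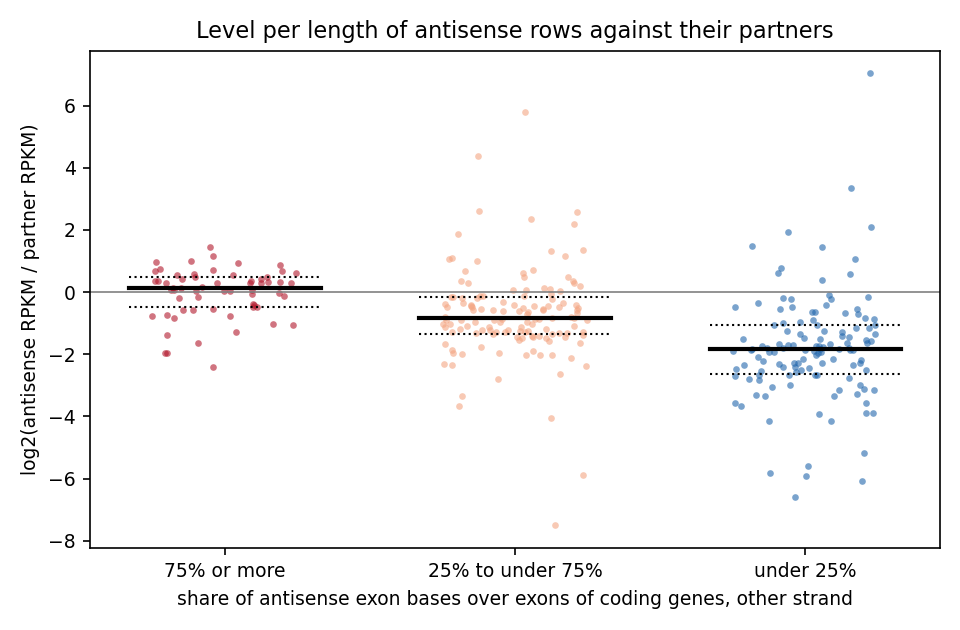
Level per length of each member against its partner, as log2 of the ratio of mean RPKM (y axis), by the share of its exon bases over exons of coding genes of the other strand (x axis); each point is a member, solid lines are medians and dotted lines quartiles. The median lies at 0.12 where the share is at least 75%, at -0.85 between 25% and 75%, and at -1.84 under 25%.

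The comparison of genotypes asks how Notch activation changes these RNAs. By edgeR's quasi-likelihood test with Benjamini-Hochberg adjustment over all 19795 genes tested, 0 of 327 members passed an adjusted p of 0.05, beside 9 of all genes (0.0455%), and the smallest adjusted p of a member was 0.0706. At an unadjusted p under 0.05 there were 67 members (20.5%), 26 higher and 41 lower in NICeCA, beside 16.5% of all genes, 9.12% higher and 7.38% lower (1805 and 1461 genes). DESeq2, run as an alternative, called 28 of 327 members (8.56%), 15 higher (3.89% over all genes) and 13 lower (2.05% over all genes), beside 5.94% of all genes with an adjusted p. The DESeq2 count of members was 18 without NICeCA 2, 10 without NICeCA 3 and 12 without WT 3. Over all genes the same fits called 529 of 18256, 387 of 16338 and 610 of 17875. Without NICeCA 1, WT 1 or WT 4, DESeq2 called 1382, 1429 and 1173 of all genes. The range of member counts over all omissions is given further below. The edgeR count over all genes was 1 without NICeCA 2, 14 without NICeCA 1, and 0 without any of the other 4 libraries. In 79 members (24.2%) no NICeCA library overlapped a WT library, 33 with higher and 46 with lower values in NICeCA, beside 23.4% of all genes, 11.6% higher and 11.8% lower. Of the 28 members whose mean was under 100 counts in one genotype, 14 were among the 67, 11 among the 28 that DESeq2 called and 16 among the 79, and such rows could pass the minimum only through the genotype where they are high. The shares are therefore read as a description.

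The median log2 fold change of the members was -0.04, with 179 negative and 148 positive, and that of all genes tested was -0.01, with 51.6% negative. Their median absolute log2 fold change was 0.24, as was that of all genes tested, and the median standard error was 0.21. Among protein_coding rows with the same minimum mean, 7 of 11116 passed by edgeR, 18.6% had an unadjusted p under 0.05, DESeq2 called 6.54%, and 26% did not overlap between genotypes. Among lincRNA rows at that minimum, 0 of 184 passed by edgeR, with 29 (15.8%) at an unadjusted p under 0.05, and DESeq2 called 7.07%. Of the 314 distinct partners tested, 0 passed by edgeR. At an unadjusted p under 0.05 there were 72 (22.9%), 25 higher and 47 lower, beside 16.5% of all genes. DESeq2 called 27 partners (8.6%), beside 5.94% of all genes. In 91 partners (29.0%) the genotypes did not overlap, 30 higher and 61 lower, beside 23.4% of all genes. BC018473, the member that was not tested, had counts of 1, 0 and 741 in NICeCA and 0, 33 and 0 in WT.

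Gm10138 (ENSMUSG00000100954.4, chr1:151339604-151345231, minus strand) had the smallest p-value of all members. It had 64, 58.1 and 55.2 CPM in NICeCA libraries 1, 2 and 3, against 27.8, 28.9 and 32.4 CPM in WT libraries 1, 3 and 4. Every NICeCA library was above every WT library, the log2 fold change was 0.99 ± 0.11 (SE; 1.99-fold), and the edgeR adjusted p of 0.0706 missed the threshold, while DESeq2 gave 1.82e-09. Its head-to-head partner Ivns1abp had 502, 439 and 469 CPM in NICeCA, against 265, 257 and 244 CPM in WT. For Ivns1abp the log2 fold change was 0.88 ± 0.11 (edgeR adjusted p = 0.0734; DESeq2 3.14e-11), the smallest adjusted p among the partners, and again no libraries overlapped. Of the exon bases of Gm10138, 9.81% lay over exons of coding genes, and its count was between 10.5% and 13.3% of that of Ivns1abp in all 6 libraries.

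Plet1os (ENSMUSG00000101304.1, chr9:50488795-50507823, minus strand) reads across Plet1, which encodes a surface protein of epithelial progenitors, and had 11, 8.65 and 7.41 CPM in NICeCA libraries 1, 2 and 3, against 19.1, 25.7 and 21.1 CPM in WT libraries 1, 3 and 4. All NICeCA libraries were below all WT libraries, with a log2 fold change of -1.28 ± 0.19 (edgeR adjusted p = 0.0962; DESeq2 4.48e-06). Plet1 had 18.3, 8.24 and 26.2 CPM in NICeCA, against 12.7, 16.7 and 38.2 CPM in WT, values that overlapped between genotypes, with a log2 fold change of -0.36 ± 0.52 (edgeR adjusted p = 0.78). The antisense to partner ratio of this pair did not separate the genotypes (two-sided exact permutation p = 0.3).

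Among members with lower values in NICeCA, the largest difference was that of Gm15635 (ENSMUSG00000085095.2, chr7:99660130-99667500, plus strand), inside the gene of the organic anion transporter Slco2b1. Gm15635 had a NICeCA mean under 100 counts, so it could pass the minimum only through WT, and its difference is read as a description. Gm15635 had 4.26, 1.96 and 2.66 CPM in NICeCA, against 8.83, 12.9 and 18.9 CPM in WT, and Slco2b1 had 16, 10.5 and 11.5 CPM in NICeCA, against 45, 50.6 and 87.8 CPM in WT. No libraries overlapped in either row, and the log2 fold changes were -2.19 ± 0.38 for Gm15635 and -2.27 ± 0.30 for Slco2b1 (edgeR adjusted p = 0.113 and 0.0845; DESeq2 4.23e-06 and 1.21e-10). Gm4524, tail to tail with P3h2, a collagen prolyl hydroxylase, had 6.4, 5.78 and 6.21 CPM in NICeCA, against 11.2, 15.6 and 25.4 CPM in WT. Its NICeCA libraries lay close together and below the widely spread WT libraries, with a log2 fold change of -1.50 ± 0.29 beside -1.22 ± 0.40 for P3h2 (edgeR adjusted p = 0.139 and 0.225). Gm17080 had 122, 115 and 83.8 CPM in NICeCA, against 168, 194 and 232 CPM in WT, with a log2 fold change of -0.89 ± 0.18 beside -0.91 ± 0.19 for Slc29a1 (edgeR adjusted p = 0.148 and 0.155). All 3 NICeCA libraries were below the 3 WT libraries in both rows of that pair.

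The other members among the 10 with the smallest p and lower values lay at loci of varied function. They were Gm17035 (Ndrg1), Gm17133 (Man2a1, a Golgi mannosidase), Gm16048 (Npr1, a natriuretic peptide receptor), Gm37035 (P2ry1, a receptor for ADP), Gm20659 (Dusp3) and 1110046J04Rik (Serpinb6a, a protease inhibitor). Their log2 fold changes ran from -0.75 (1110046J04Rik) to -0.59 (Gm17133), with edgeR adjusted p between 0.146 and 0.177. Gm17035 was the nearest to the threshold of these and had 61.1, 63.6 and 44.7 CPM in NICeCA, against 88.7, 93.5 and 101 CPM in WT. In all 6 the libraries of the genotypes did not overlap, and DESeq2 called all 6 at adjusted p-values between 0.00342 and 0.0176. A second row of 1110046J04Rik on the same strand had 39, 49 and 45 counts in NICeCA and 32, 35 and 43 in WT, with a log2 fold change of 0.14.

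**Figure D3:**
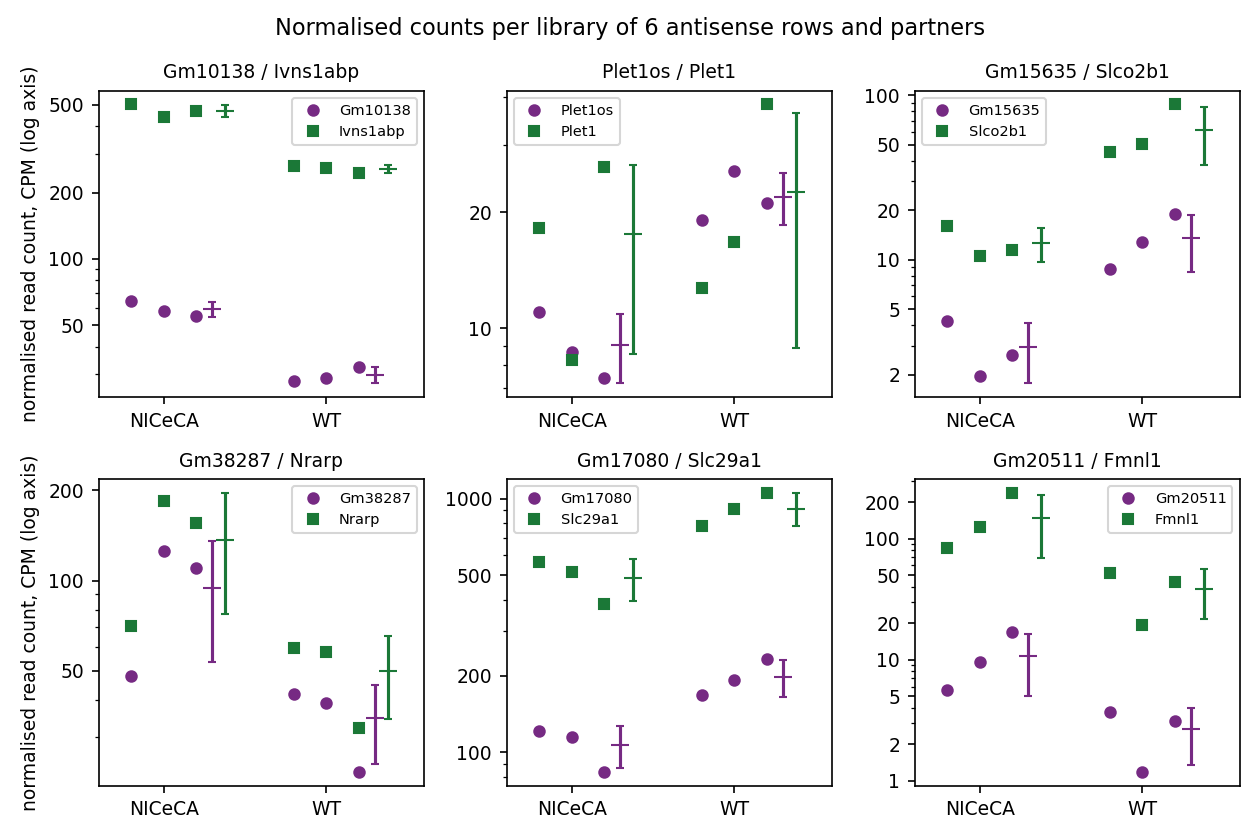
Normalised counts in CPM on a log axis for 6 antisense rows (circles) and their partners (squares), 1 point per library with NICeCA libraries 1, 2 and 3 left and WT libraries 1, 3 and 4 right, and the mean ± SD of each genotype as a bar beside the points. Both rows of the Gm10138, Gm15635, Gm38287, Gm17080 and Gm20511 pairs differ in the same direction, whereas Plet1 overlaps between genotypes and Plet1os does not.

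Of 78 genes in a list of Notch pathway, arterial, venous and sinusoidal genes, 6 were partners of 7 members. Nrarp was the Notch target among them. Gm38287 (ENSMUSG00000103217.1, chr2:25180781-25183339, minus strand) had 48.1, 126 and 110.0 CPM in NICeCA libraries 1, 2 and 3, against 42, 39.1 and 23 CPM in WT libraries 1, 3 and 4. NICeCA 2 and 3 stood apart from the other 4 libraries, NICeCA 1 was only slightly above WT 1, and the log2 fold change was 1.45 ± 0.38 (2.73-fold; edgeR adjusted p = 0.194; DESeq2 0.00508). Nrarp had 70.5, 184 and 155 CPM in NICeCA, against 59.4, 57.9 and 32.2 CPM in WT, with a log2 fold change of 1.46 ± 0.39 (edgeR adjusted p = 0.194). The Gm38287 count was 67.5% to 71.6% of the Nrarp count in every library. Gm26947 lies near Unc5b, an arterial netrin receptor, with no overlap, and its log2 fold change was -0.68 ± 0.23 beside -0.16 ± 0.12 for Unc5b (edgeR adjusted p = 0.234 and 0.569). With a mean of 103 counts over all libraries, Gm26947 had a NICeCA mean under 100. It could thus pass the minimum only through WT, and its difference is read as a description.

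With all 6 libraries, the sinusoidal genes of the list that were partners had negative fold changes, as had the members opposite them, and none passed by edgeR. These partners were Clec4g, Maf, Stab2 and Fcgr2b. Sinusoidal genes of the list that are not partners are not described here. Clec4g had 2315, 1752 and 1416 CPM in NICeCA, against 2627, 2759 and 3632 CPM in WT, with a log2 fold change of -0.72 ± 0.24 beside -0.68 ± 0.22 for Gm16553 (edgeR adjusted p = 0.234 and 0.222). Gm15655, at the 5′ end of Maf, had 116, 42.1 and 34.4 CPM in NICeCA, against 114, 125 and 119 CPM in WT. NICeCA 1 was level with WT and NICeCA 2 and 3 were far below, so that the log2 fold change of -0.90 ± 0.43 (edgeR adjusted p = 0.357) ran from -1.65 to -0.60 when 1 library was left out, and without NICeCA 1 it passed (edgeR adjusted p = 0.0407). Maf had a log2 fold change of -0.78 ± 0.25 (edgeR adjusted p = 0.222).

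The scavenger receptor gene Stab2 is the partner of 2 members. Gm16268, whose 3′ end overlaps that of Stab2, had 98.8, 57.1 and 39.9 CPM in NICeCA, against 106, 97.6 and 108 CPM in WT, with a log2 fold change of -0.67 ± 0.30 beside -0.68 ± 0.28 for Stab2 (edgeR adjusted p = 0.329 and 0.296). Gm16280 lies in an intron of Stab2, with 0% of its exon bases over exons of coding genes, and had 4.69, 2.26 and 3.92 CPM in NICeCA, against 4.8, 4.06 and 3.68 CPM in WT. These values overlapped between genotypes, and its log2 fold change of -0.21 ± 0.31 (edgeR adjusted p = 0.786) turned to 0.04 without NICeCA 2. Gm38204, across the start of the inhibitory Fc receptor gene Fcgr2b, was at -0.33 beside -0.68 for Fcgr2b, and neither passed (edgeR adjusted p = 0.628 and 0.228). Gm38204 had 123, 99 and 64 counts in NICeCA and 129, 86 and 114 in WT. Its NICeCA mean was under 100 counts, so it could pass the minimum only through WT, and its negative sign is read as a description.

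In 5 of the 10 members with the smallest p and higher values, NICeCA 3 was the highest and WT 3 the lowest library. Gm20511 (ENSMUSG00000092371.1, chr11:103190710-103192896, minus strand) lies in Fmnl1, a formin of blood cells, and had 5.61, 9.63 and 16.8 CPM in NICeCA, against 3.71, 1.19 and 3.14 CPM in WT. The genotypes did not overlap, and the log2 fold changes were 1.99 ± 0.53 for Gm20511 and 1.95 ± 0.48 for Fmnl1 (edgeR adjusted p = 0.194 and 0.179). E430024P14Rik, tail to tail with Tagap, a gene induced in activated T cells, had 4.29, 7.4 and 10.8 CPM in NICeCA, against 3.21, 1.72 and 3.14 CPM in WT. Gm16214 in Sorl1, a sorting receptor, had 3.27, 5.24 and 12.8 CPM in NICeCA, against 1.52, 0.537 and 2.2 CPM in WT, and Gm44649 in the scaffold gene Iqgap1 had 9.08, 11 and 14.4 CPM in NICeCA, against 5.4, 3.45 and 7.21 CPM in WT. 5830432E09Rik in the receptor phosphatase gene Ptpre had 3.99, 5.64 and 7.31 CPM in NICeCA, against 2.51, 1.92 and 2.31 CPM in WT. None of these 4 overlapped between genotypes, and their log2 fold changes were 1.47 ± 0.40, 2.32 ± 0.65, 1.10 ± 0.30 and 1.33 ± 0.28 (edgeR adjusted p = 0.194, 0.199, 0.198 and 0.155).

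The summed neutrophil markers were likewise highest in NICeCA 3, at 15630 CPM, and lowest in WT 3, at 122 CPM, with the other libraries between 784 and 3983 CPM. The summed T cell markers were also highest in NICeCA 3, at 60.6 CPM, and lowest in WT 3, at 2.21 CPM. Other blood cell markers had another order. B cell markers were highest in NICeCA 1, at 17.8 CPM, and lowest in WT 4, at 1.93 CPM. Kupffer cell markers were highest in WT 4, at 933 CPM, and lowest in WT 1, at 67.2 CPM. How many of all members or all genes had the order of these 5 was not counted. The part of any cell type in the values of these members was not tested. Of the 5, all but Gm44649 had a WT mean under 100 counts. A pair of members chosen after their values were seen had the same order at the ends, namely Gm15629 in Lcp1, a leukocyte actin-bundling protein, and Gm20531 in Ptpn6, a phosphatase of blood cells. Both had a WT mean under 100 counts, as had F630028O10Rik. Gm15629 had 4.06, 5.91 and 10.8 CPM in NICeCA, against 1.34, 0.728 and 3.28 CPM in WT, and Gm20531 had 3.33, 4.63 and 9.4 CPM in NICeCA, against 1.8, 0.613 and 2.74 CPM in WT. Their log2 fold changes were 1.95 ± 0.60 and 1.75 ± 0.59 (edgeR adjusted p = 0.212 and 0.233). F630028O10Rik, also chosen after its values were seen, had the highest log2 fold change of all members, 2.52 ± 0.82, and 4.72, 7.8 and 26.8 CPM in NICeCA, against 2.3, 0.613 and 3.93 CPM in WT (edgeR adjusted p = 0.225). Leaving out 1 library moved that fold change over 1.45 to 3.15, and it overlaps no opposite coding row. Its nearest such row is Vsig4, a Kupffer cell receptor, which had 62.9, 42.3 and 5.71 CPM in NICeCA, against 5.16, 4.94 and 94.4 CPM in WT.

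Other members with a small p and higher values had another order of libraries. Gm20631 lies in Hmcn1, which encodes the extracellular matrix protein hemicentin, and had 8.35, 9.9 and 5.78 CPM in NICeCA, against 3.6, 2.45 and 3.28 CPM in WT. NICeCA 2 was the highest library, the genotypes did not overlap, and the log2 fold changes were 1.36 ± 0.27 for Gm20631 and 1.10 ± 0.24 for Hmcn1 (edgeR adjusted p = 0.139 and 0.161). Gm20631 also had a WT mean under 100 counts, so it could pass the minimum only through NICeCA. Gm28379 in Herc1, a ubiquitin ligase gene, had 11.7, 9.73 and 9.1 CPM in NICeCA, against 7.1, 5.63 and 6.64 CPM in WT. Its log2 fold change was 0.66 ± 0.18 beside 0.30 ± 0.09 for Herc1 (edgeR adjusted p = 0.194 and 0.215).

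Fold changes of members and partners mostly had the same sign, and most were small. Of 324 pairs with both rows tested, 245 had the same sign, and in 307 the log2 fold changes differed by less than 0.5. Only 63 of these members were over 0.5 or under -0.5. The median absolute log2 fold change was 0.24 in members and 0.17 in distinct partners, so gaps under 0.5 partly follow from small fold changes. The median absolute gap was 0.11 in the 61 pairs with at least 75% of exon bases over exons of coding genes, all of which differed by less than 0.5. It was 0.12 in the 133 tested pairs between 25% and 75% and 0.16 in the 125 under 25%, where 128 and 113 pairs differed by less than 0.5. In 37 pairs both rows were over 0.5 or both under -0.5, and in 0 pairs was the member over 0.5 and the partner under -0.5 or the reverse. Of the 28 members that DESeq2 called, 15 had a partner that it also called and 27 had the sign of the partner. Both rows of a pair come from the same libraries and partly the same sequence, so these counts describe the pairs and are no test of co-regulation.

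**Figure D4:**
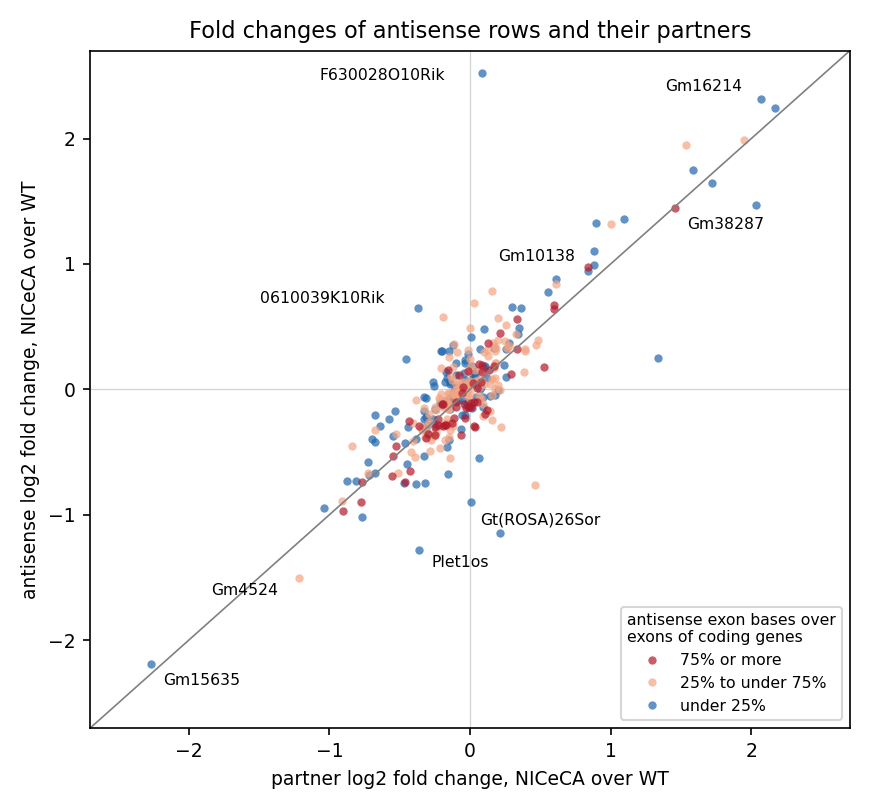
Log2 fold changes of NICeCA over WT for the partner (x axis) and the antisense row (y axis), 1 point per pair, coloured by the share of antisense exon bases over exons of coding genes; the diagonal marks equal values. Red points with a share of at least 75% stay within 0.5 of the diagonal, and F630028O10Rik, Plet1os and Gt(ROSA)26Sor, which lie far from it, have shares under 25%.

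Whether a member changed by another amount than its partner was asked with the log2 ratio of the 2 counts in each library, which does not use the library scaling. In 78 of 324 pairs (24.1%) the ratio did not overlap between genotypes, which gives the smallest two-sided exact permutation p that 3 against 3 libraries allow, 0.1. The ratio was higher in NICeCA in 46 of these and lower in 32, and 21.2% of all 763 antisense pairs tested did not overlap. Limma on the ratios of all 763 pairs called 0 (0.0%), and the smallest adjusted p of a member was 0.147, which 4 members shared. At an unadjusted p under 0.05 there were 54 member pairs (16.7%), beside 13.2% of all pairs. The 763 pairs include the 324 member pairs, and the rest have antisense rows with fewer counts. Among the 54 are rows with a mean under 100 counts in 1 genotype, such as Gt(ROSA)26Sor, E430024P14Rik and B430010I23Rik. Such rows could pass the minimum only through the other genotype, so the shares of this paragraph are read as a description.

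Of the 4 members that shared the smallest limma adjusted p, C230034O21Rik (ENSMUSG00000086181.1, chr3:38874570-38888259, minus strand) had the smallest unadjusted p. Its partner Fat4 encodes a large protocadherin of planar cell polarity. C230034O21Rik had 784, 724 and 470 counts in NICeCA, against 356, 355 and 408 counts in WT, that is 7.95%, 8.97% and 8.44% of the partner count in NICeCA, against 4.83%, 4.85% and 6.42% in WT. Its log2 fold change was 0.69 ± 0.20 (edgeR adjusted p = 0.204) beside 0.02 ± 0.21 for Fat4, which had 326, 273 and 185 CPM in NICeCA, against 260.3, 281 and 229 CPM in WT. The ratio was thus higher in all NICeCA libraries, with a log2 difference of 0.67, while the Fat4 values overlapped between genotypes. The log2 difference of the ratio was 0.50 for 1700034H15Rik and the zinc transporter gene Slc30a1. It was -0.41 for ENSMUSG00000085550.1 and Heg1, which encodes an endothelial membrane protein, and -0.41 for Gm44777 and the lipid kinase gene Pik3c2a.

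The head-to-head pair of 0610039K10Rik and Serinc3, chosen after its values were seen, had fold changes of opposite sign. 0610039K10Rik had 182, 295 and 224 counts in NICeCA, against 153, 148 and 106 counts in WT, and Serinc3 had 2361, 2315 and 1869 CPM in NICeCA, against 2498, 2465 and 3500.1 CPM in WT. The antisense count was 0.254%, 0.431% and 0.398% of the partner count in NICeCA, against 0.216%, 0.23% and 0.109% in WT, and the log2 fold changes were 0.65 ± 0.26 and -0.37 ± 0.21 (edgeR adjusted p = 0.279 and 0.435). The log2 difference of the ratio was 1.0 (limma adjusted p = 0.23). Zmiz1os1, also chosen after its values were seen, crosses the start of Zmiz1, a transcriptional coregulator, and stood at 5.03%, 6.6% and 6.25% of the partner count in NICeCA, against 4.04%, 4.88% and 4.56% in WT. Its ratio differed by 0.40 on the log2 scale (limma adjusted p = 0.23), with a log2 fold change of 0.41 ± 0.16 for the member and 0.01 ± 0.15 for Zmiz1. A second row of Zmiz1os1 on the same strand was at 0.15.

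Gt(ROSA)26Sor (ENSMUSG00000086429.9, chr6:113067659-113077333, minus strand), also chosen after its values were seen, is the transcript of the Rosa26 locus, a common site for inserting transgenes in mice. It had 96, 59 and 95 counts in NICeCA, against 158, 139 and 128 counts in WT, with every NICeCA library below every WT library. Its NICeCA mean was thus under 100 counts, so it could pass the minimum only through WT, and its difference is read as a description. The log2 fold change was -0.90 ± 0.25 (edgeR adjusted p = 0.198; DESeq2 0.0383), while its partner Thumpd3, an RNA methyltransferase gene that it overlaps tail to tail, was at 0.01 ± 0.11. A second row of that locus on the same strand had 131, 89 and 135 counts in NICeCA and 211, 204 and 200 in WT, and overlaps the member. The ratio to Thumpd3 was 17.6%, 10.2% and 16.4% of the partner count in NICeCA, against 30.7%, 29.3% and 23.1% in WT (log2 difference -0.93; limma adjusted p = 0.172). The labels do not say at which locus the NICeCA alleles lie.

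Only rows that the type column calls antisense could be members, so a listed RNA of another type is left out whatever its counts. Of 55 antisense and long non-coding RNAs with a known role, 2 were members by this rule. One of them, Kcnq1ot1, had 25, 16.3 and 25.3 CPM in NICeCA, against 20.2, 20.3 and 15.8 CPM in WT, with genotypes that overlapped and a log2 fold change of 0.24 ± 0.20 (edgeR adjusted p = 0.596). Kcnq1, on the other strand, had 52.2, 46.5 and 34.9 CPM in NICeCA, against 56.4, 64.5 and 62.9 CPM in WT and a log2 fold change of -0.46 ± 0.16 (edgeR adjusted p = 0.237). The ratio was highest in NICeCA 3, and NICeCA 2 fell among the WT libraries (two-sided exact permutation p = 0.2).

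**Figure D5:**
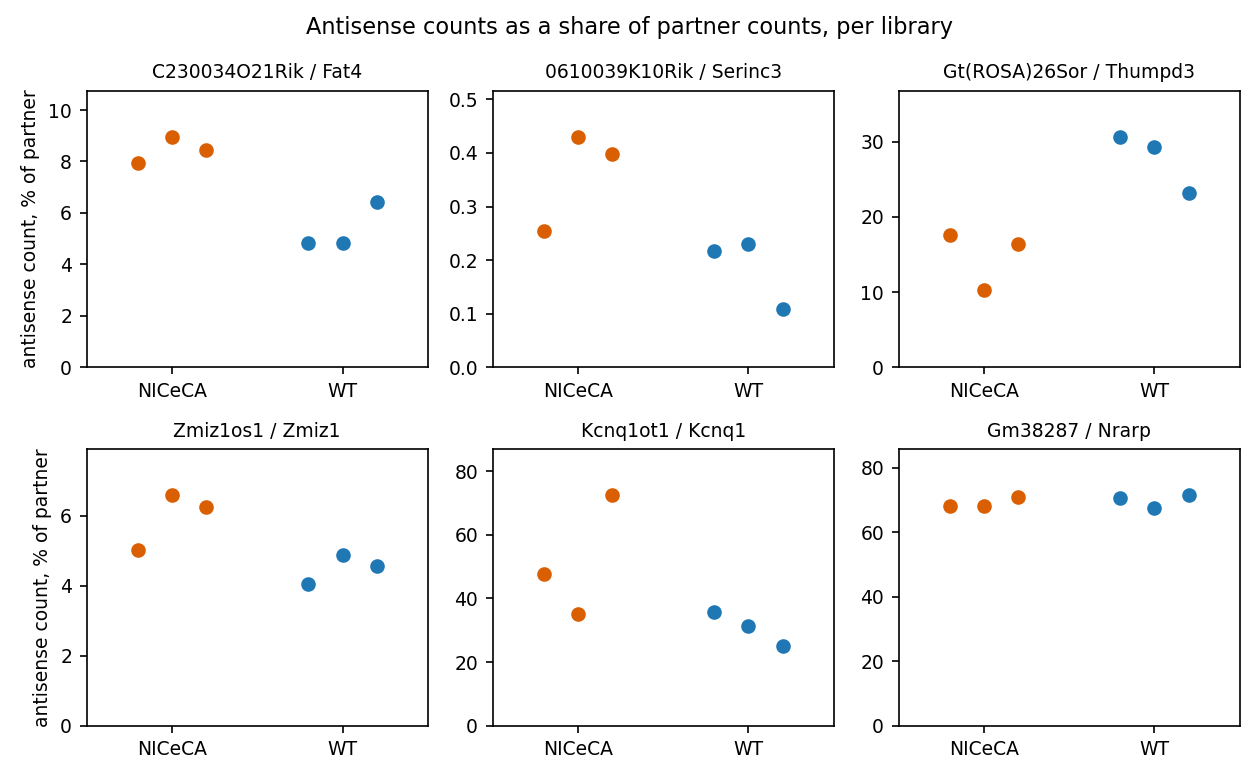
Antisense count as a percentage of the partner count (y axis, from 0) for 6 pairs, 1 point per library with NICeCA libraries 1, 2 and 3 left in orange and WT libraries 1, 3 and 4 right in blue. The genotypes do not overlap for C230034O21Rik, 0610039K10Rik, Gt(ROSA)26Sor and Zmiz1os1, overlap for Kcnq1ot1, and lie between 67.5% and 71.6% in all libraries for Gm38287.

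By position relative to the partner, none of the 6 classes held a member past the edgeR threshold. The 149 members inside a partner had a median log2 fold change of -0.0033, with 34 at an unadjusted p under 0.05 (22.8%, 16 higher and 18 lower) and 18 called by DESeq2 (12.1%). The 82 tail-to-tail members had a median of -0.09, 14 at an unadjusted p under 0.05 (17.1%, 2 higher and 12 lower) and 4 called by DESeq2 (4.88%). The 44 head-to-head members had a median of -0.08, 8 at an unadjusted p under 0.05 (18.2%, 4 higher and 4 lower) and 1 called by DESeq2 (2.27%), Gm10138. Over all genes these shares were 16.5% (9.12% higher and 7.38% lower) and 5.94%. These are counts beside each other, and the difference between classes was not tested.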

How the data were processed

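RNA of liver sinusoidal endothelial cells was sequenced as paired reads of 150 bases, per the labels' protocols. The authors deposited 1 table of whole-number read counts per gene with an RPKM value beside each count, per the file headers, and these RPKM values equal the count divided by gene length and library total. For the aligner, counting tool, annotation, build and strand setting, nothing is given in the sources used here. Of the 328 members, 286 have the same span in GENCODE M21 on GRCm38, which served for names and exons. Counts as deposited were tested with edgeR 4.0.16 in R 4.3.3 (filterByExpr with a minimum count of 10, TMM, glmQLFit and glmQLFTest, Benjamini-Hochberg adjustment over all 19795 genes tested, threshold 0.05). Standard errors are the size of the log2 value over the root of F, and CPM are given as mean ± SD over 3 libraries. Antisense to partner ratios were log2 values with 0.5 added to each count, tested by an exact permutation test and, as an alternative added after seeing the data, by limma 3.58.1. The statistics were tested on simulated data. DESeq2 1.42.0, voom, other filters, scalings, offsets and partner rules, the replicate number as a block, and leaving out each library were the alternatives.

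The members and gene lists were chosen with earlier results of these data known. Members named are the 10 with the smallest p in each direction, the 8 with the most counts, the 3 rows on each side of the minimum, and members in the lists or with a partner in them; others are said to be chosen after their values were seen. Of the members this rule picked, 1 is not reported here. Exon shares, their classes of 25% and 75%, and DESeq2 without each library were added after seeing the data. With 3 libraries per genotype, p-values from an exact test cannot go below 0.1.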

Additional observations from a re-analysis of the deposited data

How the results depend on the processing

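Log2 fold changes of the named members kept their direction under every alternative checked for it, apart from Gm11175 (-0.0694 to 0.36), Junos (-0.139 to 0.25) and Gm16280 (-0.44 to 0.0381) when 1 library was left out and BC037039 with the replicate block (-0.145). Leaving out 1 library was checked for direction with edgeR, and not with DESeq2. Over all genes, edgeR called 9, DESeq2 1107, voom 5, edgeR with no filter on low counts 111 and with the replicate block 0, and 0 to 14 when 1 library was left out. Members called were 0 by edgeR, 28 by DESeq2, 3 with no filter (Gm10138, Plet1os and Gm15635), 1 with a minimum count of 50 (Gm10138) and 0 to 1 without 1 library. Partners called were 0 by edgeR, 27 by DESeq2 and 2 with no filter. DESeq2 without 1 library called 387 to 1429 genes and 10 to 35 members. A minimum mean of 200 counts left 203 members, and one of 50 gave 438. Libraries 1 and 3 of both genotypes share a number. Their deviations from the genotype means correlated at -0.21 and -0.25, and those of the other pairs of libraries at -0.2 to 0.204. With means of only 3 libraries, these values cannot show whether libraries of the same number were handled together. With the replicate block 0 members and 0 partners passed. The causes of these differences were not tested. Strand use is unknown, and rows that overlap on 1 strand may share reads, so the count of members is not a count of independent RNAs. Groups of 3 libraries were not searched for single outlying libraries.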

Other observations

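A few pairs chosen after their values were seen had log2 fold changes more than 0.9 apart. Gm2245 lies inside Fyb, which encodes an adaptor protein of T cells and myeloid cells, with 9.45% of its exon bases over exons of coding genes. Gm2245 had 14.5, 14 and 14.4 CPM in NICeCA, against 12.7, 9.5 and 14 CPM in WT, whereas Fyb had 78.3, 69.6 and 77.1 CPM in NICeCA, against 21.8, 7.24 and 60.2 CPM in WT. The antisense row differed little between NICeCA libraries and WT libraries 1 and 4, while every Fyb value in NICeCA was above every one in WT. Their log2 fold changes were 0.25 ± 0.17 and 1.33 ± 0.64 (edgeR adjusted p = 0.507 and 0.355), and the ratio did not overlap between genotypes (two-sided exact permutation p = 0.1, the smallest possible; limma adjusted p = 0.237). Another row on the same strand, LOC102632231, covers most of its span and had 156, 128 and 176 counts in NICeCA and 47, 11 and 83 in WT, with a log2 fold change of 1.59.

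B430010I23Rik, inside Mtus1, a microtubule-associated protein gene, had 5.32, 1.45 and 1.23 CPM in NICeCA, against 9.36, 3.14 and 5.19 CPM in WT, beside 279, 323 and 286 CPM in NICeCA, against 232, 269 and 266 CPM in WT for Mtus1. Gm34866, inside Clca3a1, which encodes a chloride channel accessory protein, had 3.24, 4.7 and 3.39 CPM in NICeCA, against 7.1, 2.34 and 9.81 CPM in WT, beside 195, 197 and 189.8 CPM in NICeCA, against 122, 117 and 183 CPM in WT for Clca3a1. Their log2 fold changes were -1.14 ± 0.65 and -0.77 ± 0.48 for the antisense rows and 0.21 ± 0.12 and 0.46 ± 0.18 for the partners, and no row passed (edgeR adjusted p from 0.277 to 0.476). A second row of B430010I23Rik on the same strand had 707, 637 and 660 counts in NICeCA and 602, 520 and 608 in WT, with a log2 fold change of 0.08. The member B430010I23Rik itself had a NICeCA mean under 100 counts, so it could pass the minimum only through WT.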
